A study of Mus musculus with 4 samples.

Results

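The variants described here are the coding single-base changes listed for 1 of 2 related mouse melanoma lines and not for the other. They were chosen by the deposited variant lists themselves: a variant was called private when its position and alternative base were listed in the table of YUMM 1.1 or in that of YUMM 1.3, but in neither the other YUMM table nor the table headed MB49. YUMM 1.1 had 320 private variants of 428 listed (74.8%) and YUMM 1.3 had 120 of 225 (53.3%), which makes 440 of the 1844 distinct variants in the series. A further 97 variants were listed in both YUMM lines, and 11 in YUMM 1.1 and 8 in YUMM 1.3 were shared with the MB49 table alone. No private variant of either line was listed for UV YUMM 1.1-9 with the same position and base, and that table shared 0 variants with the other 3 tables. By its heading that table holds mutations additional to those of YUMM 1.1, so a YUMM 1.1 variant missing from it may still be carried by UV YUMM 1.1-9. Because the lists chose the members, their lengths are a description and were not tested.

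The study sequenced the exome, the coding part of the genome, of 4 mouse cancer cell lines, with 1 library for each: YUMM 1.1, UV YUMM 1.1-9, YUMM 1.3 and 1 titled 49XC-49, to which the MB49 table was assigned by elimination. The YUMM lines are known as cultured melanoma lines from mice with engineered alleles in pigment cells that include activated Braf and deleted Cdkn2a, so all of them are expected to carry those alleles; the labels give no genotype, and the engineered alleles are not among the values used here. The labels' protocol names YUMM 1.1 and MB49 as DNA sources but not YUMM 1.3, gives the source as mouse tumors, and attaches to every sample a text on MB49 injection into mice after tamoxifen-induced Atg7 deletion. Libraries were captured with an Agilent mouse exon kit and sequenced in paired reads, and the labels state a mean coverage of 80 reads. No matched normal mouse DNA was analysed here, and whether one was subtracted is not given in the sources used here.

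A cell line passes on the changes present in the cell it grew from and gains new ones in culture, so lines from mice of one design share some variants and differ in others. The fraction of reads that carry a change, the allele fraction, depends on how many of the cells have it and on the copies of that chromosome region. Changes are grouped by the pyrimidine of the altered base pair into 6 classes. Ultraviolet light is known for C>T changes after a pyrimidine, and the ageing of methylated cytosine for C>T changes before G.

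The codon changes below are examples of the private changes of each line, of several classes, with the altered base in capitals. The original codon stands before the oblique and the altered codon after it, on the coding strand, 5′ to 3′. The first 4 come from YUMM 1.1 and show its recurrent exchange of glycine and alanine by C>G, beside its Rhoa change, which is C>T. The last 4 come from YUMM 1.3.
Dvl1 A336G: gCc/gGc
Gnaq A18G: gCc/gGc
Cdk9 G42A: gGc/gCc
Rhoa C16Y: tGt/tAt
Dnmt1 P1140A: Ccc/Gcc
Npepps S523C: tCt/tGt
Dock9 S349A: Tcc/Gcc
Snx13 C572*: tgT/tgA

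C>G changes took a larger share of the private variants of YUMM 1.1 than of YUMM 1.3. They made up 86 of 320 variants in YUMM 1.1 (26.9%, exact 95% interval 22.1 to 32.1) and 14 of 120 in YUMM 1.3 (11.7%, 6.53 to 18.8). The difference was 15.2 percentage points (6.88 to 22.1), with an adjusted p of 0.00317 by two-sided Fisher's exact test, adjusted by Benjamini-Hochberg over the 6 classes. This test compares 1 library of each line and covers counting error only, as do all intervals given here. The call was lost on 2 subsets: among variants with an allele fraction of at least 20% the shares were 28.4% and 22.4% (difference 5.99 points, adjusted p = 0.608 by Fisher's exact test), and among variants with at least 50 reads they were 18.2% and 9.33% (8.90 points, adjusted p = 0.549). The first subset holds 49 variants of YUMM 1.3.

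None of the other 5 classes passed the test. C>T changes were 56 in YUMM 1.1 (17.5%) and 32 in YUMM 1.3 (26.7%), a difference of -9.17 points (-18.5 to -0.740) with an adjusted p of 0.132 by Fisher's exact test. Counting 1 variant per gene made that difference -12.2 points and brought its adjusted p to 0.0206. T>G changes were 40 (12.5%) and 22 (18.3%), and T>C changes were 68 (21.3%) and 22 (18.3%), with adjusted p of 0.251 and 0.715 by Fisher's exact test. T>A changes were 29 (9.06%) and 14 (11.7%), and C>A changes were 41 (12.8%) and 16 (13.3%), with adjusted p of 0.706 and 0.874. In both lines T was the commonest base after a T>G change where the codon shows it, at 20 of 30 in YUMM 1.1 and 11 of 16 in YUMM 1.3.

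**Figure D1:**
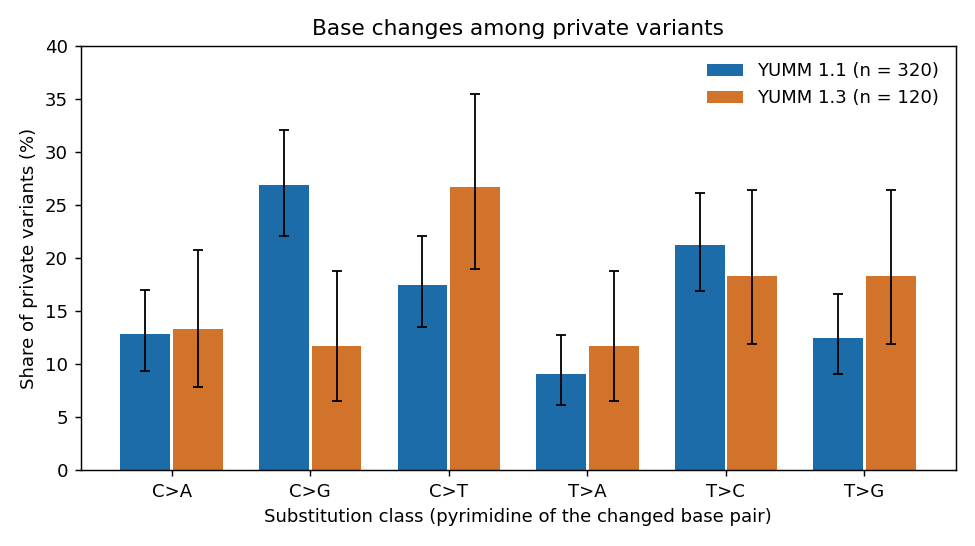
Share of private variants (%, vertical axis) in each of the 6 substitution classes (horizontal axis), with YUMM 1.1 (n = 320) left of YUMM 1.3 (n = 120) and exact 95% binomial intervals as error bars. The C>G bars stand at 26.9% and 11.7%, and the C>T bars at 17.5% and 26.7%.

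The sequence around the C>G changes of YUMM 1.1 was also uneven. Codons show 1 or both neighbours of a changed base, so the counts below are of the variants whose neighbour can be read. The base before the changed C was G in 37 of 52 C>G variants of YUMM 1.1 (71.2%) and 6 of 12 of YUMM 1.3 (50%). The base after it was C in 46 of 63 (73.0%) and 4 of 9 (44.4%). Unchanged cytosines in the codons of all private variants of both lines, counted together, had G before them in 91 of 362 cases (25.1%) and C after them in 78 of 269 (29.0%). The neighbour of an unchanged cytosine can be the changed base itself, so these counts are not independent of the changes. Where the change was at the middle of the codon and both neighbours can be read, 25 of 29 in YUMM 1.1 lay between G and C (86.2%, 68.3 to 96.1), against 2 of 7 in YUMM 1.3 (28.6%, 3.67 to 71.0). This setting was noticed in the data and carries no test.

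A C>G change between G and C at the middle of a codon exchanges glycine, the smallest residue, and alanine. The codon change gGc/gCc occurred 13 times and gCc/gGc 12 times among the 86 C>G variants of YUMM 1.1, while in YUMM 1.3 gCc/gGc occurred 2 times, in Cyc1 and Slc1a2, and gGc/gCc was not listed. Glycine to alanine and alanine to glycine together made up 26 of 217 missense variants of YUMM 1.1 (12%) and 3 of 92 of YUMM 1.3 (3.26%), a difference of 8.72 points (1.78 to 14.2), given as a description. The difference was 8.43 points (-5.02 to 16.2) at an allele fraction of at least 20% and 6.27 points (-1.76 to 12.5) at 50 or more reads. Without multigene family symbols it was 8.15 points (-0.420 to 14.4). In the other alternatives tried its interval stayed above 0. The exchanges of YUMM 1.1 included Dvl1 A336G, in a Wnt signal transducer, with 24 of 51 reads (47.1%), and Cdk9 G42A, in the kinase that releases paused RNA polymerase II, with 8 of 67 reads (11.9%), a variant named here after its value was seen. Leucine to valine followed with 11 variants in YUMM 1.1 and proline to alanine with 9. In YUMM 1.3 the most frequent exchanges were phenylalanine to valine and threonine to alanine, with 4 variants each.

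The 86 C>G changes of YUMM 1.1 lay in 83 genes on 18 chromosomes, 7 of them in genes with a multigene family symbol, and 72 were missense. That mark goes by the symbol alone. It covers prefixes such as Olfr, Vmn, Zfp and Cyp, Gm followed by a number, and names ending in Rik. It therefore takes in clone names such as 4930522H14Rik and leaves out some clustered copies such as Pcdhb7. The C>G changes of YUMM 1.1 had a median depth of 45.5 reads, against 66 reads for the other classes of that line. Their median allele fraction was 25.2% against 24.9%. In YUMM 1.3 the 14 C>G changes had a median depth of 56.5 reads and a median allele fraction of 32.2%, against 63 reads and 14.9% for its other classes. The part that depth and allele fraction play in the C>G difference was not tested.

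Allele fractions were spread differently in the 2 lists. The median was 25% in YUMM 1.1 (quartiles 17.4 and 32.6%) and 16.0% in YUMM 1.3 (quartiles 12.1 and 38.2%). In YUMM 1.1, 102 variants (31.9%) lay under 20%, 180 (56.3%) lay from 20% to under 40%, and 38 (11.9%) lay at 40% or more. In YUMM 1.3 the counts were 71 (59.2%), 20 (16.7%) and 29 (24.2%). YUMM 1.1 thus had 1 broad group, with its fullest 5-point bin at 25 to 30% (56 variants), whereas YUMM 1.3 had 56 variants at 10 to 15%, 1 at 25 to 30% and 12 at 45 to 50%. Membership depended on a floor in the lists, since no listed variant had fewer than 5 alternative reads or an allele fraction under 10%, so these values are a description. At that floor, 25 private variants of YUMM 1.1 and 10 of YUMM 1.3 had exactly 5 alternative reads, and 21 and 30 had an allele fraction under 12%. The lists do not give the reads of the other line at these sites, so a variant that is not listed there is not shown to be absent there.

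**Figure D2:**
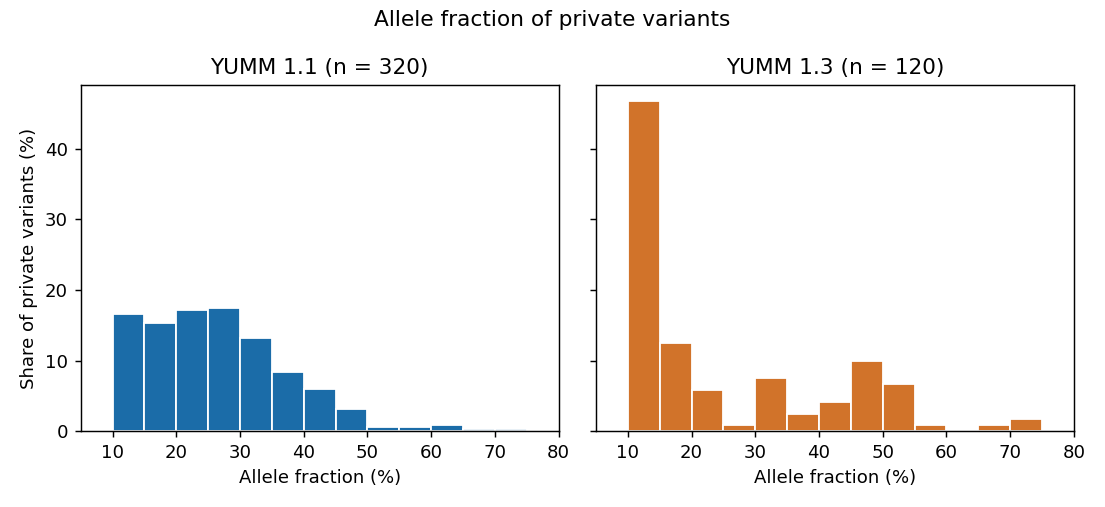
Share of private variants (%, vertical axis) in 5-point bins of allele fraction (%, horizontal axis), for YUMM 1.1 (left, n = 320) and YUMM 1.3 (right, n = 120). YUMM 1.1 is nearly level up to 30% and falls off above, while YUMM 1.3 has most of its variants under 20% and a second, smaller group at 40% or more.

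C>G changes fell in different parts of these distributions. Of the variants under 20%, C>G made up 24 of 102 in YUMM 1.1 (23.5%) and 3 of 71 in YUMM 1.3 (4.23%). From 20% to under 40% it made up 51 of 180 in YUMM 1.1 (28.3%) and 7 of 20 in YUMM 1.3 (35%). At 40% or more it made up 11 of 38 in YUMM 1.1 (28.9%) and 4 of 29 in YUMM 1.3 (13.8%). The C>G share was thus lower in YUMM 1.3 under 20% and at 40% or more, and higher in YUMM 1.3 in the middle band, which holds 20 of its variants. These bands were set after the values were seen and carry no test. T>C in YUMM 1.3 ran otherwise, at 17 of 71 under 20%, none of 20 in the middle band and 5 of 29 at 40% or more.

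**Figure D3:**
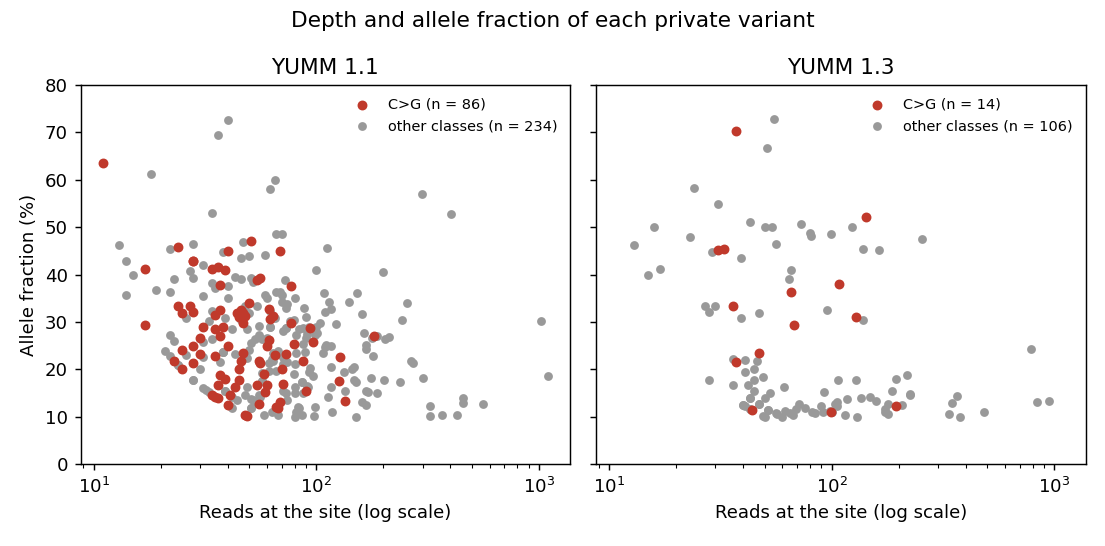
Allele fraction (%, vertical axis) against reads at the site (log scale, horizontal axis) of each private variant, for YUMM 1.1 (left) and YUMM 1.3 (right), with C>G changes in red and other classes in grey. The 86 C>G points of YUMM 1.1 run through its whole cloud at a median of 45.5 reads, and 11 of the 14 of YUMM 1.3 lie at an allele fraction of at least 20%.

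Some of the highest allele fractions in each line fell on single genes. Among protein-changing variants with at least 20 reads in genes without a multigene family symbol, the highest in YUMM 1.1 were Higd1b L39M (29 of 40 reads, 72.5%), Setdb2 F204V (39 of 65, 60%), Zscan4c R110K (36 of 62, 58.1%) and Peg3 K570N (18 of 34, 52.9%). Setdb2 is a histone methyltransferase relative and Peg3 an imprinted zinc finger gene. Zscan4c has similar copies beside it, so its reads can be misplaced. In YUMM 1.3 the highest by the same limits were Dock9 S349A (40 of 55, 72.7%), Dnmt1 P1140A (26 of 37, 70.3%), Tmed6 F68V (14 of 24, 58.3%), Npepps S523C (74 of 142, 52.1%) and Atp8b3 K292T (37 of 73, 50.7%). Dock9 is an exchange factor for the GTPase Cdc42, and Dnmt1 is the enzyme that copies DNA methylation after replication. On the X chromosome each line had 2 private variants. These were Lage3 E116D with 17 of 38 reads and Morf4l2 P97S with 5 of 33 in YUMM 1.1, and Vmn2r121 D495A with 39 of 81 reads and a synonymous change in Cdr1 with 62 of 124 in YUMM 1.3.

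Most private variants changed the protein in both lines. YUMM 1.1 had 217 missense, 98 synonymous and 5 stop-gain variants, and YUMM 1.3 had 92 missense, 26 synonymous and 2 stop-gain variants. Protein-changing variants were 69.4% in YUMM 1.1 (64.0 to 74.4) and 78.3% in YUMM 1.3 (69.9 to 85.3), a difference of -8.96 points (-17.3 to 0.530) with an adjusted p of 0.519 by Fisher's exact test over 9 measures of make-up. SIFT, a predictor of whether a residue change is tolerated, gave a call for 200 missense variants of YUMM 1.1 and 79 of YUMM 1.3. It called 96 (48%) and 46 (58.2%) of them deleterious, a difference of -10.2 points (-22.5 to 2.76) with an adjusted p of 0.519 by Fisher's exact test. At an allele fraction of at least 20% the shares were 47.4% and 72.7%, a difference of -25.4 points (-40.1 to -6.43) with an adjusted p of 0.0999, and at 50 or more reads the difference was 3.44 points with an adjusted p of 1. Exchanges between unlike residues, with a BLOSUM62 score under 0, were 105 of 217 (48.4%) and 48 of 92 (52.2%), with an adjusted p of 0.928. A change of charge occurred in 62 (28.6%) and 26 (28.3%), with an adjusted p of 1.

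The contexts known for ultraviolet light and methylated cytosine did not pass the test between the lines either. C>T changes followed a pyrimidine in 16 of 42 in YUMM 1.1 (38.1%) and 6 of 17 in YUMM 1.3 (35.3%), with an adjusted p of 1 by Fisher's exact test. They preceded G in 8 of 29 (27.6%) and 12 of 26 (46.2%), a difference of -18.6 points (-41.0 to 6.56) with an adjusted p of 0.519 by Fisher's exact test. Among the unchanged cytosines of both lines, C came before in 133 of 362 cases (36.7%) and T in 79 (21.8%). G came after them in 48 of 269 cases (17.8%). The C>T shares were not tested against these counts, in which the neighbour can be the changed base itself. C>G changes followed T, the base before most changes by APOBEC enzymes, in 6 of 52 (11.5%) and 3 of 12 (25%), with an adjusted p of 0.633. The intervals are wide at these counts, and a p that misses the threshold does not show that the lines are alike.

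**Figure D4:**
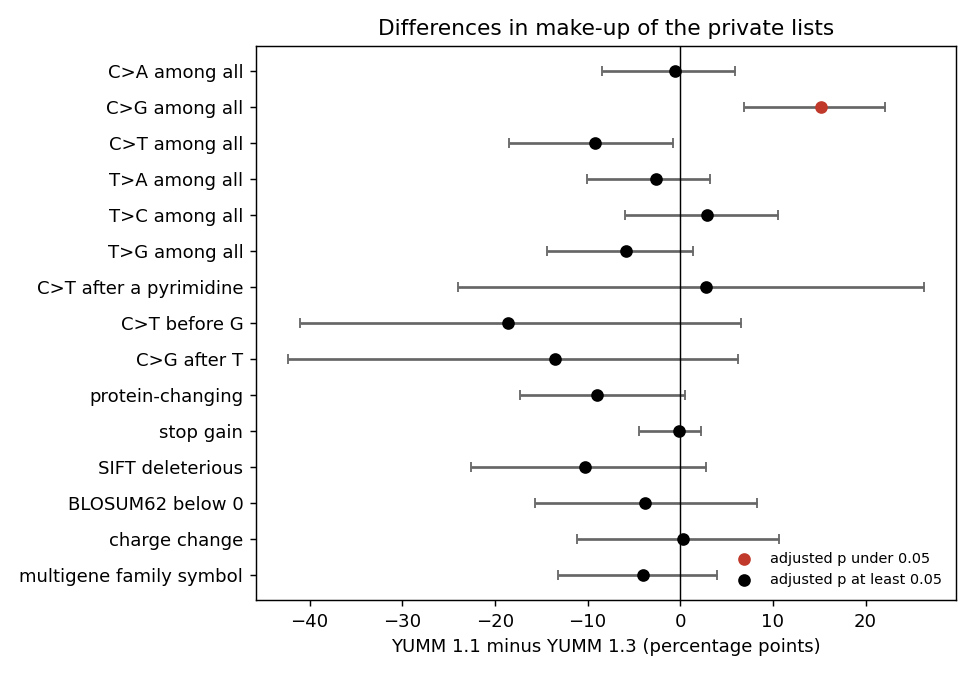
Difference in share between the private lists, YUMM 1.1 minus YUMM 1.3 (percentage points, horizontal axis), for each of the 6 classes and the 9 other measures (vertical axis), with 95% intervals. C>G, in red, at 15.2 points is the measure with an adjusted p under 0.05 by Fisher's exact test.

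The stop gains of YUMM 1.1 were in Vmn2r41, a vomeronasal receptor (K426*, 170 of 298 reads, 57.0%), 4930522H14Rik (S3*, 55 of 152), Dram1, a p53-induced regulator of autophagy (G106*, 15 of 55), Olfr382, an odorant receptor (Y102*, 58 of 266), and Rprm, a p53-induced brake on the cell cycle (Y109*, 5 of 24). Those of YUMM 1.3 were in Snx13, a sorting nexin (C572*, 42 of 138, 30.4%), and Dzip1l, a cilium protein (E729*, 5 of 41). Changes in a splice region were listed for 7 variants of YUMM 1.1, in Arhgef11, Aspg, Dnajb6, Flt4, Rbl1, Trappc13 and Xdh, and for Slc1a2 A7G in YUMM 1.3 (8 of 37 reads). Leaving out calls that SIFT marked as low confidence, the deleterious calls with the deepest coverage were Gm7361 T53P (38 of 365), Hsd3b3 N248Y (36 of 202), Rtn4 A391P (49 of 181), Sec63 I77K (47 of 177) and Klk1b5 E182V (21 of 167) in YUMM 1.1. In YUMM 1.3 they were Vmn2r107 A664V (53 of 485), C130026I21Rik N122Y (45 of 348), Vmn2r116 P540S (36 of 337), Olfr68 A186V (121 of 255) and Olfr726 W260C (23 of 180). Vomeronasal and odorant receptors have many near-identical copies, so reads can be placed on the wrong copy, and those values are uncertain.

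Private protein changes reached 205 of 21900 protein-coding genes in YUMM 1.1 (0.936%) and 84 in YUMM 1.3 (0.384%), and the counts in gene lists below are to be read beside those shares. Among 40 melanoma drivers and tumour suppressors, 3 genes were changed in YUMM 1.1 (7.5%) and none in YUMM 1.3. Rhoa C16Y, in a GTPase that controls the actin skeleton, lay at chr9:108327632 (mm10) and had 51 of 112 reads (45.5%, 36.1 to 55.2), with SIFT calling it deleterious. Gnaq A18G, in a G protein alpha subunit mutated in uveal melanoma, had 6 of 28 reads (21.4%), and Sf3b1 A2P, in a splicing factor mutated in the same tumour, had 7 of 30 (23.3%). SIFT called both tolerated, that of Sf3b1 with low confidence. Lists chosen with earlier results of these data known, as these were, give no test of either line.

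Among 73 chromatin regulators, 2 genes were changed in YUMM 1.1 (2.74%) and 4 in YUMM 1.3 (5.48%), beside 0.936% and 0.384% over all genes. YUMM 1.1 had Kat6a S954C, in a histone acetyltransferase (20 of 51 reads), and Ncor1 H1364R, in a corepressor (24 of 117, 20.5%). YUMM 1.3 had Dnmt1 P1140A at 70.3%, Kmt2b F1223C, in a histone methyltransferase (7 of 45), Ncor1 T2112A (23 of 129, 17.8%), and Smarca4 E1557G, in a chromatin remodeller (6 of 47). Dnmt1 was the one of these above an allele fraction of 40%. Among 74 genes of DNA repair and replication, 1 was changed in each line (1.35%). YUMM 1.1 had Fance R112L (12 of 39), in the Fanconi anaemia complex. YUMM 1.3 had Rev3l F708V (13 of 130), in a polymerase that bypasses damage.

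Adhesion genes tie cells to the matrix and to each other. Of 148 integrins, laminins and cadherins, 6 were changed in YUMM 1.1 (4.05%) and 2 in YUMM 1.3 (1.35%). YUMM 1.1 had Cdh13 H414Y (5 of 41 reads), Cdh7 S747Y (16 of 48), Itga2 E760Q (14 of 45), Lama2 T2366K (30 of 147), Pcdhb6 L561P (58 of 272) and the changes in Itga6 described below. YUMM 1.3 had Pcdhb11 H183L (29 of 187) and Pcdhb7 T394M and A410G (26 of 208 and 24 of 194). Protocadherin beta genes lie in a cluster of similar copies, so reads can be misplaced there too.

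Among 113 motor proteins and giant muscle proteins, 8 genes were changed in YUMM 1.1 (7.08%) and 2 in YUMM 1.3 (1.77%). Those of YUMM 1.1 were Dnah2, Dnah6, Kif14, Myh1, Myh15, Myo5a, Syne1 and Ttn, with Myh1 K87R at 74 of 243 reads and Myh15 K262N at 41 of 100. Myo5a, which carries melanosomes, had L908V in 8 of 45 reads (17.8%). It was the 1 gene changed among 28 pigment and melanocyte genes (3.57%). Those of YUMM 1.3 were Dnah5 K1650M (11 of 90) and Myo5b S691G (5 of 43). These genes are long, and length was not taken into account in the counts.

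Among 66 genes of receptor tyrosine kinases and PI3K signalling, 1 was changed in YUMM 1.1 (1.52%) and none in YUMM 1.3. It was Flt4, a receptor for lymphatic growth factors, with K516T in 15 of 57 reads. Neither line had a private protein change in the 37 listed genes of antigen presentation and interferon, the 46 listed autophagy genes or the 109 listed collagens and matrix genes, although Nlrc5, the activator of class I antigen presentation genes, had a synonymous variant in YUMM 1.1. At the shares over all genes, 0.936% and 0.384%, lists of these sizes would hold few changed genes or none. Their lack of changes therefore sets them apart from other genes in neither line. These hand-written lists are not complete: Dram1, with its stop gain in YUMM 1.1, is not among the autophagy genes, and Ifi44 F35I (16 of 55 reads in YUMM 1.1) and Ifnl3 K41T (7 of 62 reads in YUMM 1.3) are in interferon-related genes outside the list, named here after their values were seen. Among larger lists, 15 of 1465 odorant and vomeronasal receptors were changed in YUMM 1.1 (1.02%) and 11 in YUMM 1.3 (0.751%). Of 667 ion channels and solute carriers, 7 (1.05%) and 2 (0.300%) were changed. Of 466 zinc finger proteins, 6 (1.29%) and 2 (0.429%) were changed, and the 6 include the similar copies Zscan4b, Zscan4c and Zscan4d. The shares over all genes were 0.936% and 0.384%, and the shares of these lists were not tested against them.

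The 320 private variants of YUMM 1.1 lay in 287 genes and the 120 of YUMM 1.3 in 111 genes. One variant was listed for 271 genes of YUMM 1.1 and 103 of YUMM 1.3. A different private variant in each line was listed for 5 genes, or 1.74% of the YUMM 1.1 genes and 4.50% of the YUMM 1.3 genes: C130026I21Rik, Gm15433, Gm21190, Ncor1 and Pcdhb7. C130026I21Rik, Gm15433 and Gm21190 have a multigene family symbol, and Pcdhb7 lies in a cluster of similar copies, where reads can be misplaced. C130026I21Rik and Ncor1 had a protein change in both. Over all 21900 protein-coding genes, private protein changes reached 0.936% in YUMM 1.1 and 0.384% in YUMM 1.3. Those 2 shares leave out genes with synonymous variants alone, which the 5 genes do not. They are therefore lower than the shares of genes with any private variant, 287 and 111 genes. The overlap of genes was not tested. C130026I21Rik S288L had 71 of 560 reads in YUMM 1.1, and in YUMM 1.3 the same gene had N122Y, F300I (5 of 43) and a synonymous variant (191 of 786).

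Itga6, the alpha subunit of laminin receptors, had 12 private variants in YUMM 1.1 and none in YUMM 1.3. They lay within 29304 bases of chromosome 2, from position 71816749 to 71846052 (mm10), and 8 were missense. Their allele fractions ran from 13.7 to 30.4%, with a median of 21.6%. The missense changes were N101S (13 of 80 reads), G453D (7 of 51), E564K (14 of 46), K613R (8 of 56), L638V (19 of 87), V665L (9 of 45), R689W (18 of 62) and R953H (41 of 168). SIFT called G453D and R689W deleterious and the other 6 tolerated. By class, 6 of the 12 were C>T and 2 were C>G.

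Zscan4c, a zinc finger gene of early embryos, had 5 missense variants, of which R110K had 36 of 62 reads and N349K 55 of 302 (18.2%). Ttn, the giant sarcomere protein, had 4 variants, among them K20656R (24 of 90) and L9814V (22 of 126). Vmn2r32 had 3, with K648R in 6 of 13 reads.

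Private variants were spread over the chromosomes with a few dense stretches. Chromosome 7 held 59 variants of YUMM 1.1 (18.4%) and 12 of YUMM 1.3 (10%), and chromosome 2 held 42 (13.1%) and 7 (5.83%). The differences were 8.44 points (0.730 to 14.7) and 7.29 points (0.705 to 12.4). The chromosome 2 difference was 3.91 points (-2.48 to 8.75) without Itga6, 4.00 points (-2.54 to 8.89) with 1 variant per gene, 2.18 points (-9.96 to 9.84) at an allele fraction of at least 20% and 12.7 points (4.19 to 19.1) at 50 or more reads. The chromosome 7 difference was 4.50 points (-4.05 to 11.0) without multigene family symbols and 6.47 points (-1.49 to 12.8) with 1 variant per gene. It was 7.23 points (-5.16 to 15.3) at an allele fraction of at least 20% and 8.67 points (-0.891 to 16.0) at 50 or more reads. Its interval stayed above 0 in the other alternatives that kept the chromosome. These chromosomes were singled out after their values were seen and carry no test. Stretches of at least 5 private variants with gaps of at most 1000000 bases were found 3 times in YUMM 1.1 and 1 time in YUMM 1.3. The longest, chr7:6502111-11161953 in YUMM 1.1, held 23 variants in 15 genes, 12 of them in 9 Vmn2r genes and 8 in Zscan4b, Zscan4c and Zscan4d. Both groups hold similar copies, so reads can be misplaced among them, although the Zscan4 genes were not counted among the multigene family symbols. Another of YUMM 1.1 was Itga6. The 3 stretches of YUMM 1.1 were found from its private variants. YUMM 1.3 listed no variant in them, which is a description and carries no test. Its own was chr1:84964261-85259698, with 6 variants in Gm15433, A530032D15Rik and C130026I21Rik at a median depth of 283.5 reads. YUMM 1.1 also had 1 private variant in that stretch. A further 2 variants there were listed in both lines, and 2 of YUMM 1.3 were shared with the MB49 table alone. All 6 lie in genes with a multigene family symbol, and whether reads were misplaced there was not tested. Without chromosomes 2 and 7 the C>G difference was 18.3 points, with an adjusted p of 0.00243 by Fisher's exact test.

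**Figure D5:**
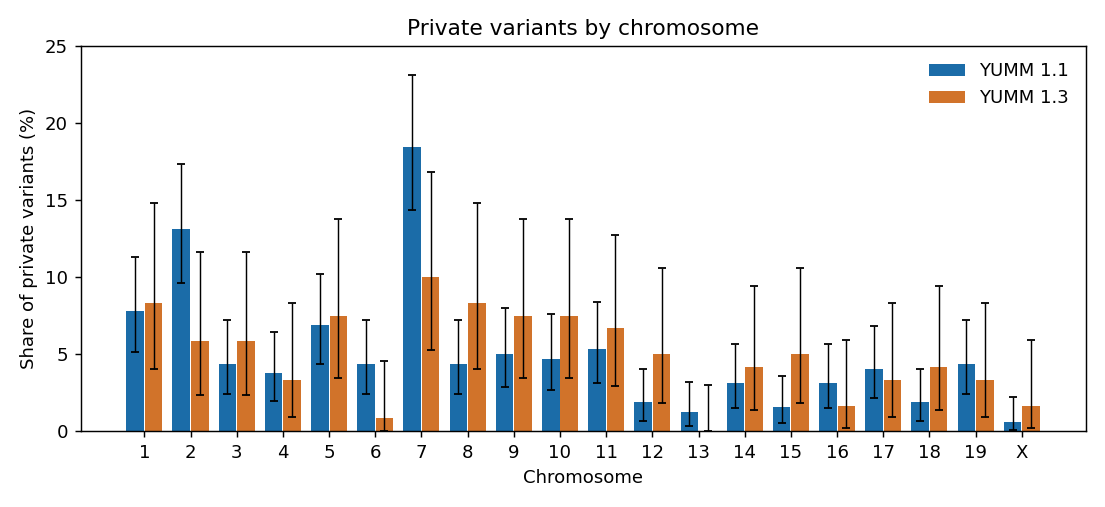
Share of private variants (%, vertical axis) on each chromosome (horizontal axis), with YUMM 1.1 left of YUMM 1.3 and exact 95% binomial intervals. Chromosome 7 holds 18.4% and 10% and chromosome 2 holds 13.1% and 5.83%.

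A few private variants lay next to each other. In Kif14, a mitotic motor, a synonymous change (17 of 80 reads) and I1378T (16 of 74) lay 2 bases apart in YUMM 1.1. In Hspa12b, a chaperone relative, L472Q (9 of 27) and a second listed change (10 of 30) lay in the same codon in YUMM 1.3. The annotation treats the 2 changes of that codon as separate.

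Private variants were set against the 97 variants listed in both YUMM lines. C>G made up 26.9% of the private and 10.3% of the shared variants in YUMM 1.1, a difference of 16.6 points (7.67 to 23.4) with an adjusted p of 0.00102 by Fisher's exact test over 6 such tests. In YUMM 1.3 it made up 11.7% and 10.3%, with an adjusted p of 0.996. The YUMM 1.1 call was lost among variants with at least 50 reads, at 6.87 points and an adjusted p of 0.246. The multigene family symbol is a mark by name alone and includes Rik, Gm and Zfp names as well as odorant receptors. Genes with it held 18.4% of the private and 57.7% of the shared variants in YUMM 1.1. In YUMM 1.3 they held 22.5% and 57.7%. Those differences were -39.3 and -35.2 points, with adjusted p of 3.44e-12 and 4.35e-07 by Fisher's exact test. At 50 or more reads they were -33.3 and -27.3 points. The shared sites were deeper, with a median of 219 reads in YUMM 1.1 and 239 in YUMM 1.3, against 59 and 63 for the private variants. The part that depth plays in these differences was not tested. Both tests within a line use the same 97 shared sites, and 53 of these were also listed for MB49, which the rule does not allow a private variant. Between the lines, the multigene family share of private variants was 18.4% in YUMM 1.1 and 22.5% in YUMM 1.3, a difference of -4.06 points (-13.2 to 3.95) with an adjusted p of 0.633.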

How the data were processed

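Exomes of 4 cell lines were analysed, with 1 library for each. Per the submitters' processing notes, the authors used BWA 0.7.5a, GATK, Picard, SAMtools and FastQC with mm10; the sources used here do not give their roles or settings. The authors' deposited tables list coding variants with reference and alternative read counts and a SIFT call and score, per the file headers. Variants were reduced to distinct position and base, and the changed base was read from the deposited codon, since no genome was used; it matched the listed base for 428 of 428 YUMM 1.1 and 225 of 225 YUMM 1.3 variants. Symbols were matched to RefSeq (GRCm38.p6) for 282 of 287 and 105 of 111 genes. In YUMM 1.1, 2 symbols that had become dates were named by position. Private variants had a median depth of 59 reads in YUMM 1.1 (11 to 1097) and 63 in YUMM 1.3 (13 to 947).

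Shares were compared with two-sided Fisher's exact tests (SciPy 1.17.1), adjusted by Benjamini-Hochberg within 6 classes, 9 measures of make-up and 6 private against shared tests at 0.05. Share intervals are exact binomial and difference intervals Newcombe. The test of the 6 classes was tried on simulated data at the sizes of the whole lists, 428 and 225 variants, not of the private lists. The coverage of the exact interval was also simulated. The other tests and the difference intervals were not. The members and gene lists were chosen with earlier results of these data known. Named were genes private in both lines, genes with at least 3 private variants, changed genes of the 10 smaller of 13 lists, stop and splice changes, and per line the 8 protein-changing variants of highest allele fraction (at least 20 reads, no multigene family symbol) and the 5 deepest deleterious calls without a low-confidence mark. Alternatives were allele fraction, depth, gene families, 1 variant per gene, Itga6, neighbouring changes and the definition of private; ignoring MB49 and leaving out chromosomes 2 and 7 were chosen after seeing the data. Results of some genes that the naming rule covers are not reported here.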

Additional observations from a re-analysis of the deposited data

How the results depend on the processing

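No paired analysis was possible because each line has 1 library and no replicate. Over the alternatives tried, the adjusted p of the C>G difference ran from 0.00126 to 0.608 by Fisher's exact test. The lowest came from all listed variants, where the sites shared by the lines count in both, so the sides are not independent. The C>G call was lost at an allele fraction of at least 20% (5.99 points, adjusted p = 0.608 by Fisher's exact test) and at 50 or more reads (8.90 points, 0.549), where the YUMM 1.1 private against shared C>G difference also lost its call (6.87 points). Fewer variants remain there: 192 and 75 at 50 reads, and 49 of YUMM 1.3 at 20%. Whether the smaller numbers account for the lost calls was not tested. Median allele fractions became 29.8 and 44.8% at the 20% floor, and 13.7% in YUMM 1.3 at 50 reads. All variants of the YUMM 1.3 table number 225.

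Calls gained were C>T with 1 variant per gene (-12.2 points) and without chromosomes 2 and 7 (-11.5 points), protein-changing variants of YUMM 1.3 against shared sites with 1 variant per gene (16.0 points), and the multigene family share over all listed variants (-11.7 points). That last setting counts the 97 shared sites in both lines, so its 2 sides are not independent. Those sites are 22.7% of the YUMM 1.1 list and 43.1% of the YUMM 1.3 list, and 57.7% of them have a multigene family symbol. The cause of the gained calls was not tested.

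Signs turned for differences that passed no test under either setting. Stop gains became 0.253 (20% floor) and 0.750 (50 reads). Charge changes became -3.98 (20% floor), -1.56 (1 per gene), -0.510 (without Itga6), -3.36 (all variants) and -1.98 (MB49 ignored). C>A became 0.5 (50 reads), 1.05 (no families) and 0.189 (MB49 ignored), and T>A became 0.792 (50 reads). C>T after a pyrimidine became -3.98 (50 reads), -5.53 (no families), -3.90 (all variants), -3.64 (MB49 ignored) and -5.22 (without chromosomes 2 and 7). SIFT deleterious calls became 3.44 (50 reads), against -25.4 at the 20% floor, and unlike residues 1.30 (without chromosomes 2 and 7). Against shared sites at 50 reads, protein-changing variants of YUMM 1.1 became -0.473 and C>G of YUMM 1.3 became -1.78. Defining private against all 4 tables gave the same 320 and 120 variants, since the UV YUMM 1.1-9 table lists changes additional to YUMM 1.1 and held none of them.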
